A study of Homo sapiens with 14 samples.

Results

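The 44 genes described here are interferon-stimulated genes, taken as a fixed list of symbols from the 58434 gene symbols of the count table, and all 44 were found in it. They were followed over 14 RNA sequencing libraries of MDA-MB-231, an established human breast cancer line of the basal type. The cells carried a doxycycline-inducible lentiviral short hairpin RNA, either non-silencing (MB-231-shNSi) or against DAP5 (MB-231-shDAP5), where DAP5 is the initiation factor relative of eIF4G encoded by EIF4G2. Every culture, controls included, received doxycycline at 1 µg/ml for 6 days. Each line was a stable population selected with puromycin and sorted for the red fluorescent marker of the vector. Each line had 2 cultures, labelled replicate 1 and 2, and each culture gave a library of total mRNA, of light polysomes (poorly translated mRNA) and of heavy polysomes (well-translated mRNA). Each shNSi culture also gave a moderate polysome pool, and no moderate pool of the shDAP5 cultures was analysed here. The shDAP5 light libraries were titled light but carry the sample code of the moderate pool, and their total libraries have titles that read total polysome. Both were taken by their titles as light and total.

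Interferons are secreted proteins that bind receptors on the cell surface, activate the kinases JAK1 and TYK2 and, through factors that include STAT2 and IRF9, switch on a large set of genes by a short DNA element in their promoters, the interferon-stimulated response element (ISRE). Interferon gamma acts on another element, the gamma-activated site (GAS). The products detect viral RNA, block translation or viral entry, degrade RNA or modify proteins with the ubiquitin-like protein ISG15. Many carcinoma lines express part of this set without added interferon. The protein products range from small membrane proteins to very large ones, so the coding sequences of the 44 genes differ widely in length.

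Promoter sequences were searched for the ISRE and the GAS. RefSeq promoters (GRCh38.p14) were used for 35 of the 44 genes, DDX58 under its symbol RIGI. In the 250 bases upstream of the start the letters GAAA, any 2 bases and again GAAA (ISRE), and the letters TTCNNNGAA (GAS), were searched for on both strands. The ISRE letters were in 18 of 35 promoters, 51.4%, against 3.07% of 27305 promoters. The GAS letters were in 8 of 35, 22.9%, against 6.78% of all promoters. ISRE matches overlapped each other in 4 of the genes, and an ISRE match overlapped a GAS match in 2. The genes shown are IFIT1 and IFIT3, neighbours of IFIT2, ISG15, its ligase HERC5, and IRF1 as a promoter with a GAS match and no ISRE match. Capitals mark the matched letters, and bases read 5′ to 3′ on the gene's own strand.
IFIT1 (chr10:89392492-89392544, plus strand): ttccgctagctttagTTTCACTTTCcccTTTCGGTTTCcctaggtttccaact
IFIT3 (chr10:89327826-89327899, plus strand): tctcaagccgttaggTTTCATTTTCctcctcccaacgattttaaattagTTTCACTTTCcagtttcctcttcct
ISG15 (chr1:1013369-1013414, plus strand): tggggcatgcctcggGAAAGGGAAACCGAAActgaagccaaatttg
HERC5 (chr4:88456979-88457069, plus strand): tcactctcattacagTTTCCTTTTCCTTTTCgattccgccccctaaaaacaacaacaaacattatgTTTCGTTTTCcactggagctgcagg
IRF1 (chr5:132490874-132490912, minus strand): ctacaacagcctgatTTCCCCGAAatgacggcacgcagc
A match is a description of letters and was not tested for binding. IFIT1 and IFIT3 each held 2 separate ISRE matches, whereas the 2 of ISG15 overlapped each other. HERC5 held 3, of which a pair overlapped. HERC5, ISG15, IFIT1 and IFIT3 thus shared the ISRE letters, while IFIT2 was not among the 35 promoters searched. Whether the matches bear on the comparisons that follow was not tested.

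The libraries held between 25899838 and 30795910 counts, which limits the precision for the least abundant genes. EIF4G2, the silenced gene, was at 1483 and 1460 counts per 1000000 reads (CPM, scaled by TMM within each fraction) in shNSi total mRNA and at 566 and 774 CPM in shDAP5 total mRNA. This is a log2 change of -1.11 (SE 0.18, adjusted p = 0.0172), or -0.90 without shDAP5 replicate 1, where it did not pass. The call was also lost with limma (adjusted p = 0.143) and in a joint fit of all 14 libraries (-1.13, adjusted p = 0.442). Here and below, paired values are given in the order of culture 1 and culture 2. In the gradient its log2 change was -0.86 (adjusted p = 0.0690) in the heavy and -1.33 (adjusted p = 0.429) in the light pool. Of the markers of the line, VIM, CD44, MSN, AXL and EGFR were present in all 14 libraries and PGR had no read. ESR1 and CDH1 were under 1 CPM, while EPCAM was between 3.02 and 6.04 CPM and GATA3 between 10.2 and 14.7 CPM. Of 6 immune markers the highest was CD14 at 2.49 CPM, and the endothelial markers CDH5 and VWF stayed at or under 0.637 CPM. Their part in any result was not tested.

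Interferon genes themselves were at or near 0. IFNA1, IFNA2, IFNB1, IFNE, IFNK, IFNW1, IFNG, IFNL2 and IFNL3 had no read in any of the 14 libraries, which at these depths allows a level of up to 0.116 CPM in the shallowest library (3 counts, counting error only). IFNL1 was at 0.104 CPM or less, in 4 libraries only. Other interferon genes were not examined.

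The 44 genes spanned a wide range of levels in total mRNA. Per kilobase of exon, IFITM3, a membrane protein that blocks virus entry, had the highest mean level at 275 CPM per kb over the 4 cultures (range 229 to 370). Its relative IFITM2 followed at 61.0 CPM per kb (range 45.1 to 81.8) and ISG15 at 49.9 CPM per kb (range 29.7 to 68.0), so these 2 neighbours overlapped in their ranges. UBE2L6, which passes ISG15 to its targets, was at 33.9 CPM per kb, the tetherin gene BST2 at 32.6 and IFIT3 at 31.4, and these 3 did not differ beyond their spread either. At the other end lay MX2 at 0.116, IFI27 at 0.114, RSAD2 at 0.0552, IRF9 at 0.0393 and CMPK2 at 0.0176 CPM per kb. CMPK2 had 0 to 5 counts per library and no count in 4 libraries. IRF9, the DNA-binding part of the interferon-activated complex, had 0 to 8 counts, and 48.4% of its exonic bases are shared on the same strand with AL136295.5. RSAD2, which encodes viperin, had 1 to 23 counts. These 3 genes were too low for the tests within a fraction, and only RSAD2 entered the tests of translation efficiency. How reads over shared bases were assigned is not given in the sources used here. IFITM1 and IFITM2 share 32.5% and 22.7% of their exonic bases and are close copies of each other, and XAF1, IRF1 and IFITM3 share 38.3%, 22% and 21.3% with genes on the other strand, so their counts are uncertain.

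**Figure D1:**
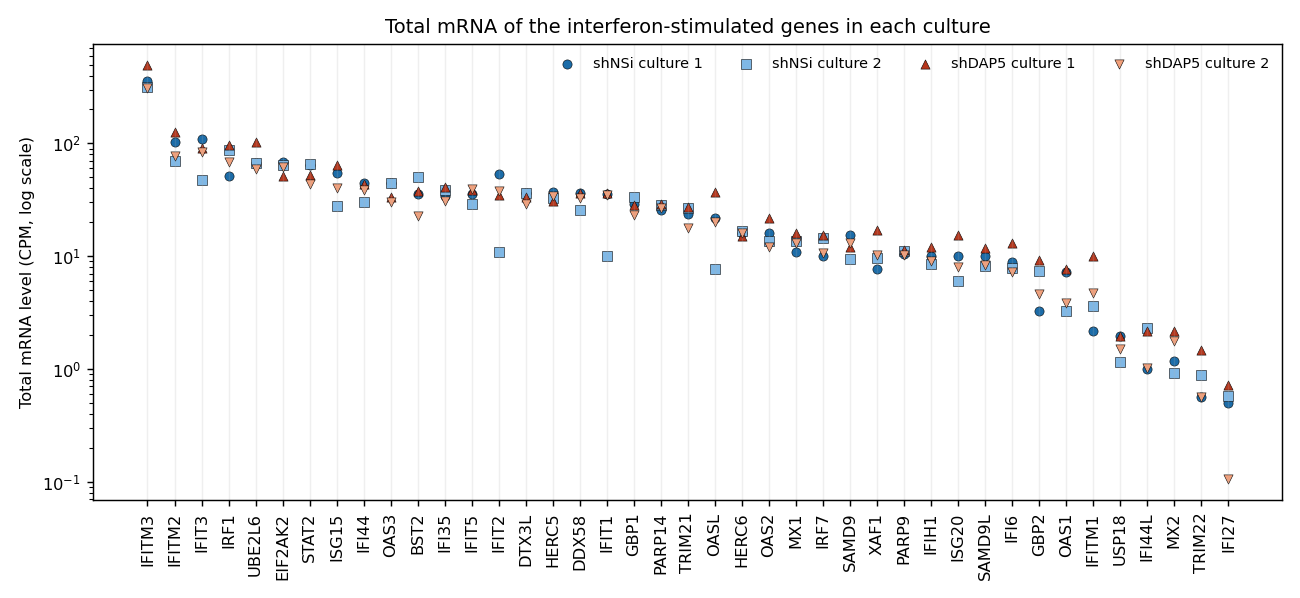
Total mRNA level of the 41 tested members in each of the 4 cultures, in CPM on a log scale, ordered by the mean. Points of the 4 cultures lie close together for most genes, and shNSi culture 2 stands below the other cultures for IFIT1, IFIT2, IFIT3 and OASL.

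None of the 41 members tested in total mRNA passed the test for DAP5 silencing (edgeR quasi-likelihood test, Benjamini-Hochberg adjusted p under 0.05). The background was 0.0867% of 14988 genes called higher and 0.267% called lower, and DESeq2 and limma called 0 members as well. At an unadjusted p under 0.05, 3 members were higher and 1 lower, beside 748 and 1050 of 14988 genes. The log2 change was above 0 for 30 members and below 0 for 11, with a median of 0.18 against 0.01 for all genes tested, where 7753 of 14988 changes were above 0. The smallest p that exact permutation of 2 against 2 libraries allows for 1 gene is 0.333. In these bulk libraries, fewer expressing cells and less RNA per cell cannot be told apart, and p-values measure only the spread between these cultures.

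The value furthest from 0 was that of IFITM1, a plasma membrane member of its family. It was at 2.16 and 3.60 CPM in the shNSi and 10 and 4.69 CPM in the shDAP5 cultures, which did not overlap, with a log2 change of 1.38 (SE 0.39, adjusted p = 0.154). MX2, a GTPase that blocks nuclear steps of retroviral infection, was at 1.17 and 0.918 CPM in shNSi and 2.19 and 1.78 CPM in shDAP5, a log2 change of 0.95 (SE 0.41, adjusted p = 0.367). The apoptosis factor XAF1 was at 7.64 and 9.64 and 17.2 and 10.3 CPM, a log2 change of 0.70 (SE 0.28, adjusted p = 0.318). The groups did not overlap for MX2 and XAF1 either, and neither passed the adjusted threshold. Both shDAP5 cultures were higher for 4 of 41 members (19.7% of all genes) and lower for 6 (22.4% of all genes), so non-overlap was no more common among the members. The member lower at an unadjusted p under 0.05 was OAS3, which makes the 2-5A signal for RNase L. It was at 44.7 and 44.8 and 33.2 and 30.3 CPM, a log2 change of -0.47 (SE 0.20, adjusted p = 0.352). Without shNSi replicate 1, 4 members were called higher, namely IFIT1 (log2 change 1.82), IFIT2 (1.77), IFIT3 (0.89) and OASL (1.89), where 0.352% of all genes were called higher. Without shDAP5 replicate 2 IFITM1 was called (log2 change 1.81, adjusted p = 0.00793), where 0.728% were.

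Before the silenced cells are compared, the place of the 44 genes in the gradient of the control cells was examined. Averaged over the 2 shNSi cultures, 29 of 42 members had their highest level in the heavy pool, 4 in the moderate pool and 9 in the light pool. Over all 16231 genes the heavy pool was highest for 40.0%, the moderate for 18.7% and the light for 41.3%. The log2 ratio of heavy to light had a median of 1.35 and 1.49 over the members in shNSi cultures 1 and 2, where all genes had 0.05 and -0.08. In the shDAP5 cultures the members' median was 0.60 and 0.64, where all genes had 0.03 and -0.06. The set therefore stood toward heavy polysomes in all 4 cultures, and less far in both shDAP5 cultures than in both shNSi cultures. These are descriptions, since the test of heavy translation efficiency rests on the same libraries.

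HERC5, the ligase that joins ISG15 to proteins, stood furthest toward the heavy pool, at a log2 ratio over total mRNA of -1.76 in light, -1.14 in moderate and 1.67 in heavy polysomes, as means of the shNSi cultures. OAS3 (-1.55, -1.22 and 1.36), the RNA sensor IFIH1 (-1.29, -0.92 and 1.36) and PARP14 (-1.36, -1.38 and 1.16) had the same shape. The IFITM genes ran the other way. IFITM1 was at 0.78, -0.25 and -1.58, IFITM2 at 0.94, -0.11 and -1.24, and IFITM3 at 0.90, -0.20 and -1.23. ISG15 was highest in the moderate pool, at 0.55, 0.94 and -0.26. The coding sequences of the 3 IFITM genes are 375, 396 and 399 nucleotides long, and those of HERC5 and PARP14 3072 and 5403 (GENCODE release 29).

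**Figure D2:**
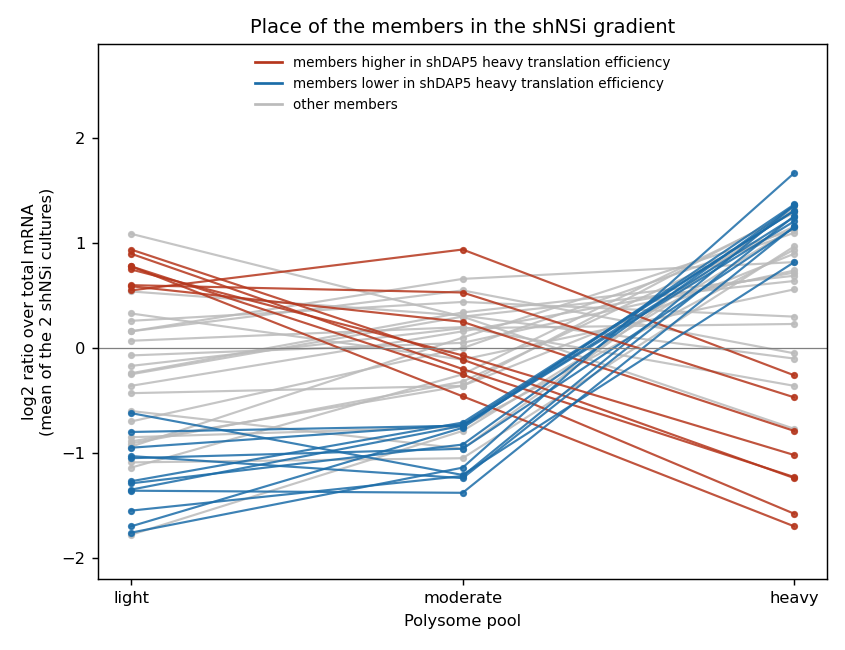
Log2 ratio of each polysome pool over total mRNA for the 42 members, as the mean of the 2 shNSi cultures, with lines joining the pools of a gene. Genes later called higher in shDAP5 heavy translation efficiency slope down toward the heavy pool, to between -0.26 and -1.70, and genes called lower slope up, to between 0.82 and 1.67.

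Levels in a pool are relative to its other mRNA and do not measure how much RNA the pool held. On this scale, 10 of the 41 members tested were higher in heavy polysomes of the silenced cells and 13 were lower. The background was high, with 14.2% of 14266 genes called higher and 16.8% called lower. The members that rose were IFITM1, IFI27, ISG20, IFITM3, IFITM2, UBE2L6, ISG15, XAF1, IFI6 and OASL, by 0.83 to 2.83 on the log2 scale. Those that fell were PARP14, OAS3, HERC5, GBP1, STAT2, SAMD9, DTX3L, IFIH1, HERC6, SAMD9L, EIF2AK2, DDX58 and TRIM21, at log2 changes of -0.90 to -1.88. The median over the members was -0.22 against 0.09 for all genes. Groups that did not overlap were common, with both shDAP5 cultures higher for 12 of 41 members and 33.1% of all genes and lower for 18 of 41 and 33.7%. With library sizes in place of TMM the calls split 9 to 5 where 17.6% and 7.99% of all genes were called, with OASL, SAMD9, DTX3L, IFIH1, HERC6, SAMD9L, EIF2AK2, DDX58 and TRIM21 no longer called, and the median over all genes moved to 0.34.

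Heavy translation efficiency is the ratio of heavy polysome mRNA to total mRNA of a culture, and its change asks whether loading moved beyond mRNA abundance. It rose for 8 and fell for 12 of 42 members, where 4.85% of 15370 genes were called higher and 8.23% lower. Those that rose were IFI27, IFITM1, ISG20, IFITM2, IFITM3, UBE2L6, ISG15 and BST2. Those that fell were PARP14, HERC5, IFIH1, SAMD9L, SAMD9, OAS3, DDX58, DTX3L, GBP2, HERC6, GBP1 and STAT2. The median over the members was -0.54 against 0.09 for all genes. At an unadjusted p under 0.05, 8 members were higher and 16 lower, beside 2069 and 2495 of 15370 genes. Both shDAP5 cultures were higher for 10 of 42 members (30.9% of all genes) and lower for 25 (29% of all genes). DESeq2 called 3 higher and 14 lower (3.57% and 9.65% of all genes), and lost IFITM1 (adjusted p = 0.0626), ISG15 (0.0512), ISG20 (0.0565) and BST2 (0.0784), while IFI27 had no adjusted p. Limma called 1 and 3 (1.44% and 0.982% of all genes), namely IFITM3 and HERC5, IFIH1 and PARP14, each at an adjusted p of 0.0499, and the other 16 calls were lost. Library sizes without TMM gave 0 and 0, as over all genes (0% and 0%), which had a median of 0.30.

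These calls depended on the control pool and on single libraries. Against the shNSi moderate pool, no member was called in heavy polysomes, where 0.179% of all genes were called higher and 0.165% lower, or in heavy translation efficiency, where 0% were, and the members' median turned to 0.57 and 0.43. So few calls are the background of that control and no result about the members. Against summed shNSi heavy and moderate counts 1 was called higher and 0 lower in heavy polysomes (0.553% and 2.22% of all genes) and none in translation efficiency (0% and 0%). Whether a heavy pool held the same part of the gradient in both lines cannot be told apart from the shRNA. In heavy polysomes 9 members were called higher and 14 lower without shNSi replicate 1, where 6.97% and 16.6% of all genes were. The calls were 5 and 11 (5.56% and 8.44%) without shNSi replicate 2, 7 and 13 (7.64% and 12.2%) without shDAP5 replicate 1, and 0 and 0 (0.00672% and 0.00672%) without shDAP5 replicate 2. In translation efficiency they were 0 and 6 (0.126% and 3.48%) without shNSi replicate 1 and 0 and 0 (0.00626% and 0.0188%) without shNSi replicate 2. They were 9 and 15 (13% and 15.5%) without shDAP5 replicate 1 and 0 and 1 (0.044% and 0.371%) without shDAP5 replicate 2.

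The IFITM proteins stop viruses at the membrane, and all 3 rose in heavy polysomes and in heavy translation efficiency. IFITM1 was at 2.16 and 3.60 CPM in shNSi total mRNA, 10 and 4.69 CPM in shDAP5 total mRNA, 0.674 and 0.675 CPM in shNSi heavy polysomes and 5.23 and 3.85 CPM in shDAP5 heavy polysomes. Its heavy polysome level was higher in both shDAP5 cultures, with a log2 change of 2.83 (SE 0.49, adjusted p = 1.53e-06), and its translation efficiency changed by 1.47 (SE 0.46, adjusted p = 0.0284). IFITM2 was at 104 and 69.6 CPM in shNSi total mRNA, 126 and 76.9 CPM in shDAP5 total mRNA, 31.9 and 23.8 CPM in shNSi heavy polysomes and 63.5 and 80.7 CPM in shDAP5 heavy polysomes. It changed by 1.45 (SE 0.34, adjusted p = 0.000352) in heavy polysomes and by 1.21 (SE 0.35, adjusted p = 0.0215) in translation efficiency. IFITM3 was at 359 and 315 CPM in shNSi total mRNA, 499 and 308 CPM in shDAP5 total mRNA, 113 and 107 CPM in shNSi heavy polysomes and 252 and 324 CPM in shDAP5 heavy polysomes. It changed by 1.47 (SE 0.36, adjusted p = 0.000622) and 1.2 (SE 0.36, adjusted p = 0.0254) in the same order. Total mRNA overlapped between the lines for IFITM2 and IFITM3 but not for IFITM1, and the heavy polysome groups overlapped for none of the 3. With limma the translation efficiency calls of IFITM1 (log2 change 0.59, adjusted p = 0.254) and IFITM2 (adjusted p = 0.0582) were lost.

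Of the 5 genes of ISG15 conjugation, 2 rose and 2 fell in both heavy measures. ISG15 itself, the ubiquitin-like modifier, was at 55.1 and 28.0 CPM in shNSi total mRNA, 64.0 and 40.5 CPM in shDAP5 total mRNA, 38.2 and 16.4 CPM in shNSi heavy polysomes and 62.1 and 70.4 CPM in shDAP5 heavy polysomes. It changed by 1.34 (SE 0.34, adjusted p = 0.00114) in heavy polysomes and by 1.07 (SE 0.35, adjusted p = 0.0362) in translation efficiency. UBE2L6, the conjugating enzyme, was at 66.9 and 66.8 CPM in shNSi total mRNA, 104 and 59.7 CPM in shDAP5 total mRNA, 25.1 and 25.4 CPM in shNSi heavy polysomes and 59.3 and 64.0 CPM in shDAP5 heavy polysomes. It changed by 1.37 (SE 0.33, adjusted p = 0.000678) and 1.09 (SE 0.35, adjusted p = 0.0324). Both shDAP5 cultures were above both shNSi cultures for the modifier and its enzyme in heavy polysomes. HERC5, the ligase, was at 36.8 and 32.9 CPM in shNSi total mRNA, 31 and 34.0 CPM in shDAP5 total mRNA, 73.9 and 97.4 CPM in shNSi heavy polysomes and 33.2 and 19.5 CPM in shDAP5 heavy polysomes. It changed by -1.61 (SE 0.34, adjusted p = 7.79e-05) and -1.59 (SE 0.35, adjusted p = 0.00745). HERC6, a relative of HERC5, was at 16.1 and 16.8 CPM in shNSi total mRNA, 15.2 and 15.9 CPM in shDAP5 total mRNA, 28.1 and 32.2 CPM in shNSi heavy polysomes and 14.4 and 10.6 CPM in shDAP5 heavy polysomes, with changes of -1.18 (SE 0.34, adjusted p = 0.00428) and -1.15 (SE 0.35, adjusted p = 0.0254). Total HERC5 and HERC6 mRNA lay within a narrow range in all 4 cultures, while the heavy polysome level was lower in both shDAP5 cultures. USP18, the protease that removes ISG15, was at 1.84 and 1.11 CPM in shNSi and 1.68 and 1.47 CPM in shDAP5 heavy polysomes, a log2 change of 0.17 (SE 0.49, adjusted p = 0.819). The coding sequences are 459 and 495 nucleotides long for the genes that rose, 3066 and 3072 for those that fell and 1116 for USP18.

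The 2 cytosolic RNA sensors among the members and the RNA-activated kinase fell in heavy polysomes. IFIH1, which encodes MDA5, was at 10.1 and 8.61 CPM in shNSi total mRNA, 12 and 8.99 CPM in shDAP5 total mRNA, 16.0 and 21.2 CPM in shNSi heavy polysomes and 10.6 and 4.40 CPM in shDAP5 heavy polysomes. It changed by -1.22 (SE 0.36, adjusted p = 0.00490) in heavy polysomes and by -1.52 (SE 0.37, adjusted p = 0.00853) in translation efficiency. DDX58, which encodes RIG-I, was at 36.0 and 25.6 CPM in shNSi total mRNA, 36.5 and 33.0 CPM in shDAP5 total mRNA, 56.1 and 52.0 CPM in shNSi heavy polysomes and 35.3 and 16.8 CPM in shDAP5 heavy polysomes, with changes of -0.97 (SE 0.33, adjusted p = 0.0174) and -1.29 (SE 0.35, adjusted p = 0.0158). Both sensors had total mRNA that overlapped between the lines and heavy polysome levels that did not. EIF2AK2, which encodes PKR, the kinase that halts initiation through eIF2α, was at 68.5 and 64.0 CPM in shNSi total mRNA, 51.0 and 62.2 CPM in shDAP5 total mRNA, 126 and 122 CPM in shNSi heavy polysomes and 61.6 and 50.1 CPM in shDAP5 heavy polysomes. It fell in heavy polysomes (-1.07, SE 0.33, adjusted p = 0.00818), while its translation efficiency change of -0.88 did not pass (adjusted p = 0.0701). With library sizes in place of TMM all 3 heavy polysome calls were lost, at an adjusted p of 0.118 for IFIH1, 0.189 for DDX58 and 0.0661 for EIF2AK2. DHX58, a related sensor outside the 44, was at 0.39 in heavy polysomes (adjusted p = 0.489).

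Among the OAS genes, whose products make 2-5A or resemble those that do, OAS3 fell in both measures and OASL rose in heavy polysomes, while OAS1 and OAS2 passed neither test. OAS3 was at 44.7 and 44.8 CPM in shNSi total mRNA, 33.2 and 30.3 CPM in shDAP5 total mRNA, 73.4 and 107 CPM in shNSi heavy polysomes and 31.8 and 15.8 CPM in shDAP5 heavy polysomes. It changed by -1.83 (SE 0.34, adjusted p = 9.82e-06) in heavy polysomes and -1.43 (SE 0.35, adjusted p = 0.00953) in translation efficiency, and both shDAP5 cultures were below both shNSi cultures in total mRNA too. OASL was at 21.7 and 7.73 CPM in shNSi total mRNA, 36.8 and 20.1 CPM in shDAP5 total mRNA, 23.0 and 11.2 CPM in shNSi heavy polysomes and 33.2 and 25.0 CPM in shDAP5 heavy polysomes, with changes of 0.83 (SE 0.34, adjusted p = 0.0486) and -0.18 (SE 0.35, adjusted p = 0.773). The heavy polysome call of OASL lay near the threshold and was lost with DESeq2 (adjusted p = 0.130) and with limma (adjusted p = 0.0652). OAS1 and OAS2 were at -0.30 and -0.22 in heavy polysomes. OAS3 has the longest coding sequence of the family at 3261 nucleotides, against 1242, 1542 and 2178 for OAS1, OASL and OAS2.

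PARP14 and the pair DTX3L and PARP9 encode ADP-ribosylation enzymes and their partner ligase, and lie within chromosome 3 (122527924 to 122730840, GRCh38). PARP14 had the lowest change of all 42 members in translation efficiency. It was at 25.8 and 28.6 CPM in shNSi total mRNA, 29.2 and 27.0 CPM in shDAP5 total mRNA, 33.6 and 64.7 CPM in shNSi heavy polysomes and 15.9 and 9.0 CPM in shDAP5 heavy polysomes. It changed by -1.88 (SE 0.34, adjusted p = 6.57e-06) in heavy polysomes and -1.97 (SE 0.36, adjusted p = 0.00567) in translation efficiency. DTX3L was at 36.6 and 36.3 CPM in shNSi total mRNA, 33.3 and 29.3 CPM in shDAP5 total mRNA, 60.5 and 80.2 CPM in shNSi heavy polysomes and 38.1 and 16.9 CPM in shDAP5 heavy polysomes, with changes of -1.26 (SE 0.34, adjusted p = 0.00203) and -1.18 (SE 0.35, adjusted p = 0.0244). Heavy polysome levels of both genes were lower in both shDAP5 cultures, while total PARP14 mRNA overlapped between the lines. PARP9, which shares a bidirectional promoter region with DTX3L, was at 12.9 and 19.7 CPM in shNSi and 12.3 and 7.33 CPM in shDAP5 heavy polysomes and passed neither test (-0.64, adjusted p = 0.152, and -0.69, adjusted p = 0.187).

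SAMD9 and SAMD9L are neighbouring genes on chromosome 7 whose products restrict poxviruses. Both fell in heavy polysomes and translation efficiency. SAMD9 was at 15.5 and 9.45 CPM in shNSi total mRNA, 12 and 13 CPM in shDAP5 total mRNA, 19.3 and 22.1 CPM in shNSi heavy polysomes and 11.3 and 4.70 CPM in shDAP5 heavy polysomes. It changed by -1.28 (SE 0.35, adjusted p = 0.00277) and -1.47 (SE 0.41, adjusted p = 0.0218). SAMD9L was at 9.94 and 8.11 CPM in shNSi total mRNA, 11.8 and 8.29 CPM in shDAP5 total mRNA, 14.5 and 19 CPM in shNSi heavy polysomes and 10.7 and 3.37 CPM in shDAP5 heavy polysomes, with changes of -1.16 (SE 0.37, adjusted p = 0.0106) and -1.52 (SE 0.38, adjusted p = 0.0107). In both genes shDAP5 culture 2 had the lowest heavy polysome level of the 4 cultures, 4.70 and 3.37 CPM.

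Of the GTPases, GBP1 fell in both measures, GBP2 fell in translation efficiency and did not pass in heavy polysomes, and MX1 and MX2 passed neither test. GBP1, which coats intracellular bacteria and vacuoles, was at 29.3 and 33.3 CPM in shNSi total mRNA, 28.3 and 23.0 CPM in shDAP5 total mRNA, 44.6 and 79.4 CPM in shNSi heavy polysomes and 28.0 and 17.5 CPM in shDAP5 heavy polysomes. It changed by -1.35 (SE 0.34, adjusted p = 0.000921) in heavy polysomes and -1.09 (SE 0.35, adjusted p = 0.0324) in translation efficiency. GBP2 was at 3.29 and 7.42 CPM in shNSi total mRNA, 9.20 and 4.65 CPM in shDAP5 total mRNA, 5.32 and 18.3 CPM in shNSi heavy polysomes and 9.08 and 3.48 CPM in shDAP5 heavy polysomes. It changed by -0.80 (adjusted p = 0.173) and -1.18 (SE 0.38, adjusted p = 0.0316), over control cultures that lay far apart. The values of MX1 were -0.58 (adjusted p = 0.187) and -0.86 (adjusted p = 0.0852), with both shDAP5 cultures below both shNSi cultures in each. Those of MX2 were 0.03 and -0.95. The sign of MX2 in heavy polysomes turned with DESeq2 and limma.

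Of the transcription factor genes, STAT2 fell in both measures and IRF1 and IRF7 passed neither. STAT2, a part of the interferon-activated complex, was at 64.2 and 65.1 CPM in shNSi total mRNA, 52.4 and 43.9 CPM in shDAP5 total mRNA, 74.2 and 104 CPM in shNSi heavy polysomes and 42.4 and 24.1 CPM in shDAP5 heavy polysomes. It changed by -1.32 (SE 0.33, adjusted p = 0.00104) in heavy polysomes and -0.98 (SE 0.34, adjusted p = 0.0484) in translation efficiency. IRF1 was at 51.6 and 87.5 CPM in shNSi total mRNA, 97.6 and 67.8 CPM in shDAP5 total mRNA, 70.4 and 91.2 CPM in shNSi heavy polysomes and 94.7 and 88.1 CPM in shDAP5 heavy polysomes, with changes of 0.27 and -0.04. IRF7 changed by 0.48 and 0.34.

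Of the effectors with short coding sequences, ISG20 rose in both measures. ISG20, an exonuclease, was at 10.1 and 6.00 CPM in shNSi total mRNA, 15.5 and 7.97 CPM in shDAP5 total mRNA, 4.87 and 2.42 CPM in shNSi heavy polysomes and 11.5 and 10.9 CPM in shDAP5 heavy polysomes. It changed by 1.68 (SE 0.39, adjusted p = 0.000312) in heavy polysomes and 1.21 (SE 0.38, adjusted p = 0.0288) in translation efficiency, and the heavy polysome groups did not overlap. BST2, the tetherin that holds budding virus at the membrane, was at 17.9 and 30.5 CPM in shNSi and 29 and 35.9 CPM in shDAP5 heavy polysomes, which overlapped. Its change passed in translation efficiency (1.04, SE 0.36, adjusted p = 0.0465) and not in heavy polysomes (0.52, adjusted p = 0.222). The call of BST2 was lost with DESeq2 (adjusted p = 0.0784), with limma (0.0946) and without a filter (0.0513). XAF1 rose in heavy polysomes (1.24, SE 0.37, adjusted p = 0.00646) from 4.91 and 5.36 CPM in shNSi to 15.1 and 7.81 CPM in shDAP5. The mitochondrial protein gene IFI6 rose in heavy polysomes (0.99, SE 0.40, adjusted p = 0.0433), from 3.71 and 3.77 CPM to 5.74 and 8.28 CPM, and its translation efficiency change of 0.72 did not pass (adjusted p = 0.230). The heavy polysome call of IFI6 was lost with DESeq2 (adjusted p = 0.0728), with limma (0.0852), without a filter (0.111), in the joint fit of 14 libraries (0.0752) and without any 1 of the 4 cultures. IFI27 was counted 1 and 4 times in the shNSi and 16 and 21 times in the shDAP5 heavy libraries, so its log2 changes of 2.67 and 3.17 (adjusted p = 0.0362) rest on very few reads. With limma both calls of IFI27 were lost, at 0.45 (adjusted p = 0.235) and 0.66 (adjusted p = 0.191).

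The 4 IFIT genes, whose products bind viral RNA ends, passed no test with all libraries, and neither did IFI35, IFI44 and IFI44L. The heavy polysome changes of the IFIT genes ran from -0.65 for IFIT3 to 0.32 for IFIT1 and their translation efficiency changes from -0.86 for IFIT3 to -0.35 for IFIT1. IFI35, IFI44 and IFI44L were at 0.59, -0.19 and 0.45 in heavy polysomes and 0.67, -0.39 and 0.53 in translation efficiency, and IFI35 was called higher in heavy polysomes (1.12, adjusted p = 0.0375) without shNSi replicate 1. IFIT3 was at 110 and 47.2 CPM in shNSi total mRNA, 90.4 and 83.6 CPM in shDAP5 total mRNA, 172 and 89.4 CPM in shNSi heavy polysomes and 83.3 and 76.0 CPM in shDAP5 heavy polysomes. IFIT1 was at 35.8 and 10.1 CPM in shNSi total mRNA, 36.0 and 35.2 CPM in shDAP5 total mRNA, 43.2 and 13.4 CPM in shNSi heavy polysomes and 34.7 and 33.4 CPM in shDAP5 heavy polysomes. IFIT2 was at 54.0 and 10.8 CPM in shNSi total mRNA, 34.6 and 38.2 CPM in shDAP5 total mRNA, 70.4 and 16.9 CPM in shNSi heavy polysomes and 35.4 and 28.5 CPM in shDAP5 heavy polysomes. In each of the 3 genes shNSi culture 2 was the lowest in total mRNA. Without shNSi replicate 1 IFIT1 was called higher in heavy polysomes (log2 change 1.37, adjusted p = 0.0111), and without shNSi replicate 2 IFIT2 (-1.13, adjusted p = 0.0315) and IFIT3 (-1.10, adjusted p = 0.0338) were called lower. Of the TRIM genes, TRIM21, an antibody receptor and ligase, fell in heavy polysomes (-0.90, SE 0.33, adjusted p = 0.0268), from 39.8 and 57.8 CPM to 25.8 and 23.1 CPM, and TRIM22 did not pass (-0.21).

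The direction of the change in heavy loading followed coding length within the set. Members that rose in heavy polysomes had coding sequences of 366 to 1542 nucleotides (median 436) and those that fell 1425 to 5403 (median 3066). In translation efficiency the ranges did not meet, 366 to 543 for the 8 that rose and 1773 to 5403 for the 12 that fell. Spearman's rho between the change in translation efficiency and coding length was -0.93 across the 42 members and -0.71 across 12480 genes. For heavy polysome mRNA it was -0.89 across 41 members and -0.65 across 12136 genes. Genes share the same 8 libraries and are not replicates, so these are descriptions without a p.

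By length class, the 7 members under 500 nucleotides had a median translation efficiency change of 1.2, where 925 genes of that length had 0.88. The 5 members of 500 to 1000 nucleotides had 0.67 against 0.56, and the 17 of 1000 to 2000 had -0.66 against -0.04. The 6 members of 2000 to 3000 nucleotides had -0.96 against -0.56, and the 7 over 3000 had -1.52 against -0.83. The set thus lay on the side of the general relation in each class, and further from 0 than all genes in each. When offsets for coding length were fitted per library, 0 members were called higher and 1 lower in translation efficiency (1.2% and 1.37% of all genes), and 1 and 5 in heavy polysomes (5.71% and 6.48% of all genes). The members' median was then -0.44 in translation efficiency, against 0.06 for all genes, and -0.16 in heavy polysomes, against 0.07.

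**Figure D3:**
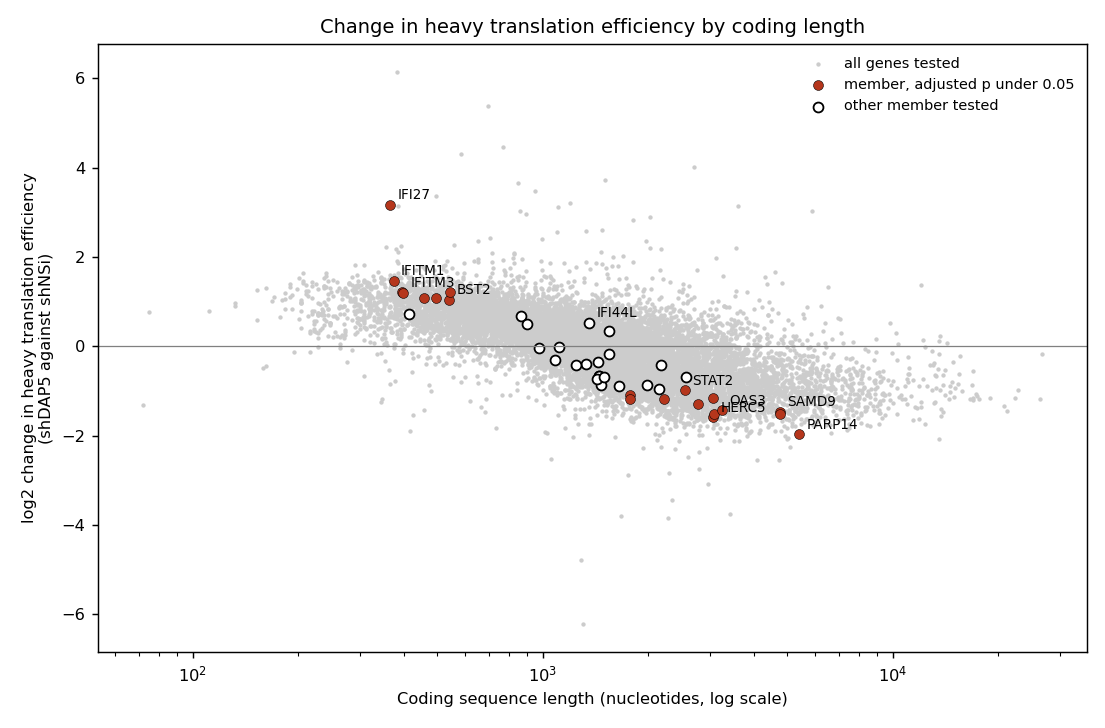
Log2 change in heavy translation efficiency against coding sequence length (log scale) for all genes tested with a known length in grey and the 42 members as large points, filled where called. Members of up to 543 nucleotides lie above 0 and members over 2000 nucleotides below 0.

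The relation lay in the cultures as follows. In shNSi cultures 1 and 2 the log2 ratio of heavy to total mRNA increased with coding length among the members, with Spearman's rho of 0.71 and 0.84 over 42 genes. In shDAP5 culture 1 it was 0.31 and in shDAP5 culture 2 it was -0.75. Across 12480 genes the values were 0.49, 0.70, 0.26 and -0.33 in the same order. For HERC5 the log2 ratio of heavy to total mRNA was 1.25 and 1.81 in the shNSi and 0.36 and -0.53 in the shDAP5 cultures, and for IFITM3 -1.42 and -1.31 and -0.73 and 0.34. The shDAP5 values were thus lower than the shNSi values for HERC5 and higher for IFITM3, and shDAP5 culture 2 lay further away than culture 1.

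**Figure D4:**
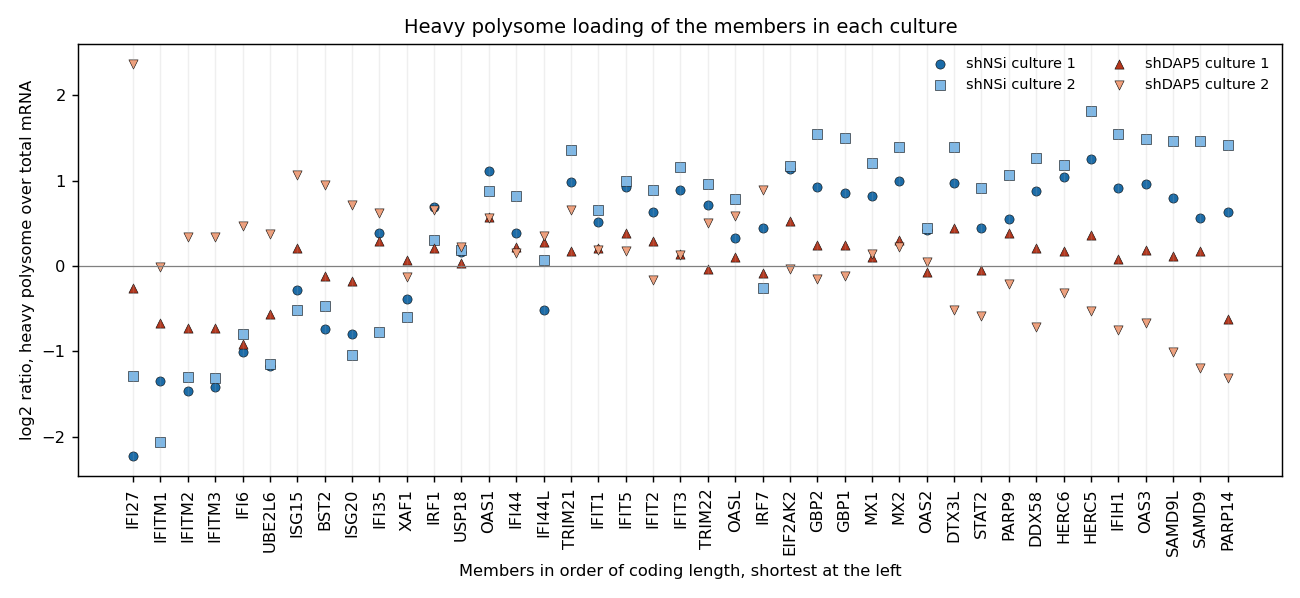
Log2 ratio of heavy polysome over total mRNA in each culture for the 41 tested members, ordered from the shortest to the longest coding sequence. In the shNSi cultures the ratio climbs from left to right, in shDAP5 culture 1 it climbs less (rho 0.31 over 42 members) and in shDAP5 culture 2 it declines.

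In light polysomes no member was called higher or lower, and no gene was, with 0% of 15525 genes called higher and 0% called lower. At an unadjusted p under 0.05, 2 members were higher and 1 lower, beside 527 and 802 of 15525 genes. IFITM1 was at 1.63 (SE 0.39, adjusted p = 0.429) and BST2 at -1.12 (SE 0.31, adjusted p = 0.453). IFITM1 had 5.15 and 5.02 CPM in shNSi light, 20.9 and 10.3 CPM in shDAP5 light and 2.21 and 1.99 CPM in the shNSi moderate pool, and the light groups did not overlap. BST2 had 56.7 and 79.7 CPM in shNSi light, 37.0 and 25.2 CPM in shDAP5 light and 44.9 and 67.3 CPM in the shNSi moderate pool, again without overlap of the light groups. The members' median change was 0.10, against -0.01 for all genes. Both shDAP5 cultures were higher for 6 of 41 members (20.6% of all genes) and lower for 5 (20.9% of all genes). DESeq2 called IFITM1 (adjusted p = 0.0233) and limma called 0 members. Without shNSi replicate 1, 9 members were called higher and 6 lower, where 12.6% and 16.3% of all genes were, and without shNSi replicate 2, 2 and 1 (1.76% and 3.04% of all genes).

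Light translation efficiency gave no call either, with 0% of 15963 genes called higher and 0% lower. DESeq2 and limma called 0 members as well. The members' median was -0.05 and all genes' 0.01. At an unadjusted p under 0.05, 2 members were higher and 3 lower, beside 353 and 480 of 15963 genes. SAMD9 (log2 change 0.73) and SAMD9L (0.64) were highest and BST2 (-0.59) lowest, all at an adjusted p of 0.879. SAMD9 had 8.86 and 4.20 CPM in shNSi light, 11.2 and 9.78 CPM in shDAP5 light and 6.12 and 5.11 CPM in the shNSi moderate pool. SAMD9L had 5.94 and 3.53 CPM in shNSi light, 9.02 and 6.90 CPM in shDAP5 light and 3.71 and 3.11 CPM in the shNSi moderate pool. The light values of both were higher in both shDAP5 cultures, at heavy values that were lower. Groups that did not overlap and lay on opposite sides in heavy and light polysomes were found for 3 of 41 members, and for 10.3% of 14032 genes. Without shNSi replicate 1, 3 members were called higher and 4 lower, where 4.8% and 7.5% of all genes were.

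The light and moderate pools are given by coding length, from the short genes to the long ones and then the remaining members shown above. IFITM2 had 253 and 117 CPM in shNSi light, 217 and 128 CPM in shDAP5 light and 101 and 50.4 CPM in the shNSi moderate pool. IFITM3 had 870 and 500 CPM in shNSi light, 939 and 542 CPM in shDAP5 light and 332 and 210 CPM in the shNSi moderate pool. ISG15 had 72.8 and 50.2 CPM in shNSi light, 68.7 and 41.4 CPM in shDAP5 light and 101 and 46.2 CPM in the shNSi moderate pool. Light IFITM2, IFITM3 and ISG15 mRNA overlapped between the lines. UBE2L6 had 139 and 100 CPM in shNSi light, 183 and 98.0 CPM in shDAP5 light and 77.5 and 42.6 CPM in the shNSi moderate pool. ISG20 had 14.9 and 10.3 CPM in shNSi light, 25.4 and 14.8 CPM in shDAP5 light and 13 and 5.39 CPM in the shNSi moderate pool. These 5 short genes had a higher CPM in light than in heavy polysomes in both shNSi cultures.

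Of the long genes, PARP14 had 11.8 and 10.5 CPM in shNSi light, 14 and 10.1 CPM in shDAP5 light and 7.09 and 12.4 CPM in the shNSi moderate pool. HERC5 had 9.01 and 12.8 CPM in shNSi light, 9.78 and 8.70 CPM in shDAP5 light and 11.1 and 18.2 CPM in the shNSi moderate pool. OAS3 had 13.5 and 19.1 CPM in shNSi light, 12.2 and 9.60 CPM in shDAP5 light and 15 and 20.1 CPM in the shNSi moderate pool. These 3 had a lower CPM in light than in heavy polysomes in both shNSi cultures, and OAS3 was lower in both shDAP5 light libraries than in both shNSi ones. HERC6 had 6.21 and 7.37 CPM in shNSi light, 5.36 and 4.55 CPM in shDAP5 light and 7.35 and 10.7 CPM in the shNSi moderate pool. EIF2AK2 had 31.3 and 31.8 CPM in shNSi light, 27.3 and 28.6 CPM in shDAP5 light and 40.0 and 63.3 CPM in the shNSi moderate pool. HERC6 and EIF2AK2 were lower in both shDAP5 light libraries too, as 20.9% of all genes were. DTX3L had 19.9 and 19.7 CPM in shNSi light, 23.1 and 16.3 CPM in shDAP5 light and 15.3 and 25.9 CPM in the shNSi moderate pool. IFIH1 had 3.52 and 4.43 CPM in shNSi light, 3.87 and 4.91 CPM in shDAP5 light and 4.20 and 4.62 CPM in the shNSi moderate pool. DDX58 had 22.3 and 15.2 CPM in shNSi light, 23.6 and 19.6 CPM in shDAP5 light and 16.7 and 16.1 CPM in the shNSi moderate pool. Light mRNA of the ligase DTX3L and of both sensors overlapped between the lines. STAT2 had 50.3 and 39.0 CPM in shNSi light, 50.5 and 36.0 CPM in shDAP5 light and 20.1 and 31.5 CPM in the shNSi moderate pool. GBP1 had 10.1 and 18.3 CPM in shNSi light, 13.4 and 9.50 CPM in shDAP5 light and 9.92 and 29.9 CPM in the shNSi moderate pool. The light groups overlapped for both, and moderate GBP1 mRNA was far higher in culture 2. IFIT3 had 57.5 and 28.5 CPM in shNSi light, 51.0 and 48.3 CPM in shDAP5 light and 54.6 and 49.9 CPM in the shNSi moderate pool. IRF1 had 39.6 and 89.1 CPM in shNSi light, 60.5 and 42.2 CPM in shDAP5 light and 45.7 and 123 CPM in the shNSi moderate pool. None of the genes of these pools passed the test in light polysomes.

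Culture 1 and culture 2 of each line were then compared within each fraction, as ratios without replicates. In shNSi, IFIT2 and RSAD2 were more than 2-fold higher in culture 1 in every fraction and GBP2 in culture 2, so 2 of 42 and 1 of 42 members. The background was 0.574% of 15510 genes higher in culture 1 and 0.883% higher in culture 2. The log2 ratio of IFIT2 was 2.30 in total mRNA, 2.0 in the light pool, 1.57 in the moderate pool and 2.03 in the heavy pool. RSAD2 was counted at most 23 times a library, with log2 ratios of 2.88 in total mRNA, 1.81 in the light pool, 1.78 in the moderate pool and 1.40 in the heavy pool. For GBP2 they were -1.17 in total mRNA, -1.40 in the light pool, -2.24 in the moderate pool and -1.79 in the heavy pool. The control cultures therefore differed in opposite directions among members.

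IFIT2 belonged to a cluster on chromosome 10 (89283694 to 89421001, GRCh38) with IFIT1, IFIT3 and IFIT5. IFIT1 followed it with 1.79 in total mRNA, 1.54 in the light pool, 0.46 in the moderate pool and 1.66 in the heavy pool, and IFIT3 with 1.2 in total mRNA, 1.04 in the light pool, 0.19 in the moderate pool and 0.92 in the heavy pool. IFIT5, at the end of the cluster, was at 0.28 in total mRNA, 0.28 in the light pool, -0.46 in the moderate pool and 0.20 in the heavy pool. By position from IFIT2 the order along the chromosome is IFIT3, IFIT1 and IFIT5, so the ratio in total mRNA did not decline steadily along the cluster. OASL, on chromosome 12, was at 1.46 in total mRNA, 1.02 in the light pool, 0.81 in the moderate pool and 1.01 in the heavy pool. IFI44L ran the other way at -1.19 in total mRNA, -0.60 in the light pool, -0.72 in the moderate pool and -1.79 in the heavy pool. IFIT1 had 26.3 and 9.22 CPM in shNSi light, 27.8 and 24.4 CPM in shDAP5 light and 22.1 and 16.7 CPM in the shNSi moderate pool. IFIT2 had 37.4 and 9.49 CPM in shNSi light, 31.3 and 30.5 CPM in shDAP5 light and 28.7 and 10 CPM in the shNSi moderate pool. OASL had 16.2 and 8.16 CPM in shNSi light, 21.9 and 14 CPM in shDAP5 light and 19.2 and 11.4 CPM in the shNSi moderate pool. The shNSi light level of each of these 3 genes was lower in culture 2.

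In the shDAP5 cultures 0 of 41 members passed the 2-fold limit in every fraction, with a background of 0.339% of 15615 genes higher in culture 1 and 0.0576% higher in culture 2. IFIT1 was at 0.02 in total mRNA, 0.21 in the light pool and 0.01 in the heavy pool, and IFIT2 at -0.16 in total mRNA, 0.05 in the light pool and 0.27 in the heavy pool. Both genes thus lay close together in the silenced cultures. A general shift ran across the set, with 35, 36 and 33 of 41 members higher in culture 1 in total mRNA, light and heavy polysomes. The medians were 0.41, 0.50 and 0.32, where all genes had -0.01, 0.00 and -0.03. GBP2 at 0.96 in total mRNA, 1.22 in the light pool and 1.32 in the heavy pool and IFI44L at 1.04 in total mRNA, 1.02 in the light pool and 0.95 in the heavy pool were furthest from 0 with the same sign in every fraction. EIF4G2 had log2 ratios of -0.46 to -0.04 between these cultures, and its part in the shift was not tested. GBP2 had 0.909 and 2.59 CPM in shNSi light, 3.01 and 1.26 CPM in shDAP5 light and 1.14 and 5.88 CPM in the shNSi moderate pool. IFI44L had 1.89 and 2.98 CPM in shNSi light, 2.9 and 1.41 CPM in shDAP5 light and 1.30 and 2.27 CPM in the shNSi moderate pool. RSAD2 had 0.606 and 0.118 CPM in shNSi light, 0.207 and 0.0361 CPM in shDAP5 light and 0.748 and 0.175 CPM in the shNSi moderate pool. The light level of GBP2 and IFI44L was higher in culture 2 in shNSi and in culture 1 in shDAP5, and that of RSAD2 was higher in culture 1 in both lines.

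**Figure D5:**
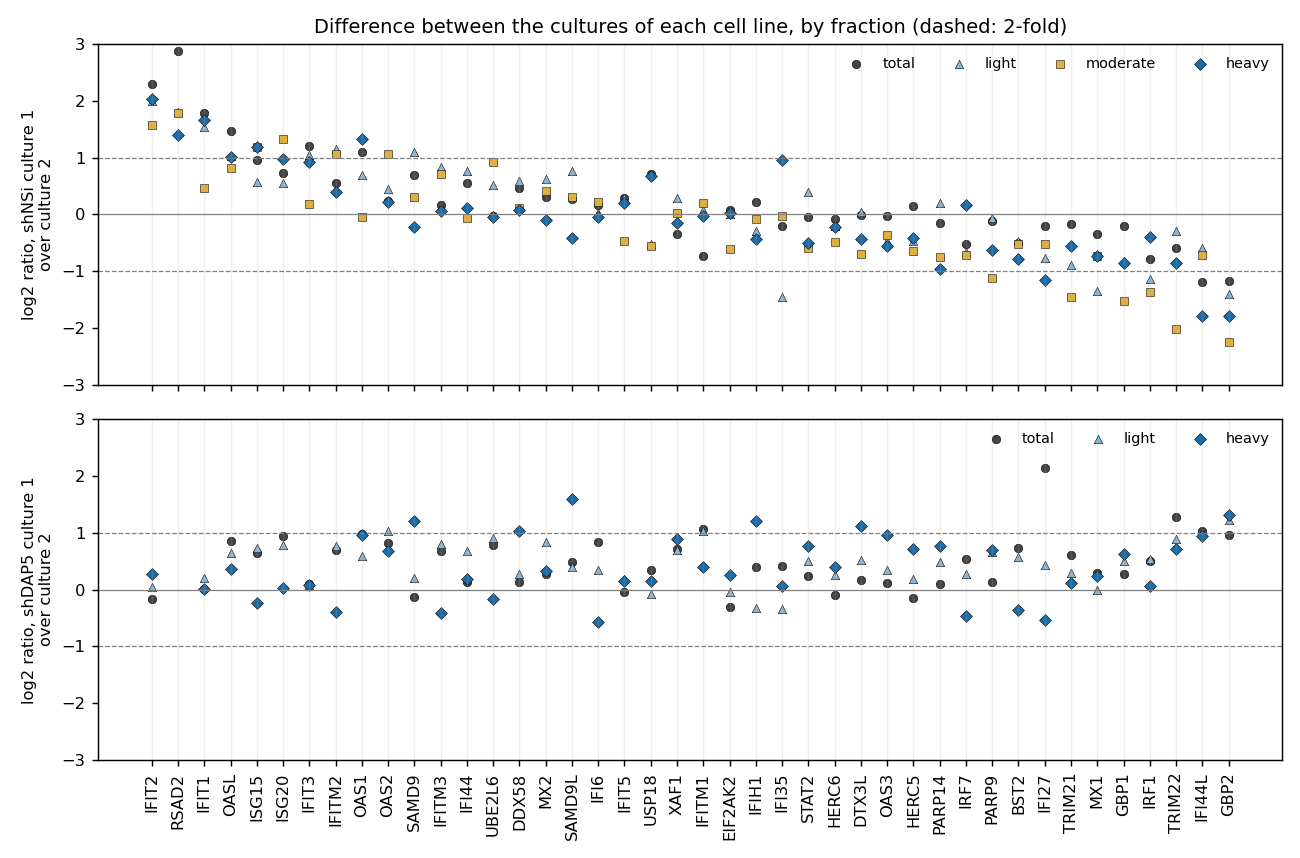
Log2 ratio of culture 1 over culture 2 for each member and fraction, in shNSi (upper panel, 42 members) and shDAP5 (lower panel, 41 members), in the order of the shNSi mean. In shNSi the genes spread from IFIT2 and RSAD2 at the top to GBP2 at the bottom, and in shDAP5 most points lie above 0.

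The other genes of the interferon pathway were taken from a list of 32 genes for ligands, receptors, sensors and signalling, of which 22 were tested. None passed in total mRNA or light polysomes by edgeR's test. At an unadjusted p under 0.05, 0 were higher and 1 lower in total mRNA, beside 748 and 1050 of 14988 genes. In light polysomes 1 was higher and 2 lower, beside 527 and 802 of 15525 genes. In heavy polysomes 1 rose and 5 fell, where 14.2% of all genes were called higher and 16.8% lower, and in heavy translation efficiency 0 rose and 4 fell, where 4.85% and 8.23% were. The kinase gene JAK1 was at 180 and 228 CPM in shNSi and 79.2 and 50.9 CPM in shDAP5 heavy polysomes, and changed by -1.56 (SE 0.34, adjusted p = 0.000169) in heavy polysomes and -1.35 (SE 0.34, adjusted p = 0.0109) in translation efficiency. IFNGR1, a receptor chain for interferon gamma, changed by -1.69 (SE 0.34, adjusted p = 4.13e-05) and -1.15 (SE 0.35, adjusted p = 0.0247), and TLR3 by -1.79 (SE 0.40, adjusted p = 0.000197) in heavy polysomes. TBK1 fell in both (-0.95 and -0.97), while SOCS3, a feedback inhibitor, rose in heavy polysomes (0.81, SE 0.33, adjusted p = 0.0448). Of 40 further interferon-stimulated genes outside the 44, 38 were tested. In heavy polysomes 1 rose and 17 fell, and in translation efficiency 1 rose and 8 fell, beside the same background. None was called in total mRNA or light polysomes. At an unadjusted p under 0.05, 0 were higher and 2 lower in total mRNA. In light polysomes 1 was higher and 2 lower, and the counts over all genes are those given above. C19orf66, an inhibitor of viral frameshifting, was the gene that rose, and it is named after its values were seen. It changed by 1.35 (SE 0.36, adjusted p = 0.00191) in heavy polysomes and 1.05 (SE 0.36, adjusted p = 0.0426) in translation efficiency. The genes with the lowest p were DDX60L (-1.75, SE 0.35, adjusted p = 3.13e-05, in heavy polysomes), LGALS3BP (-1.85, SE 0.38, adjusted p = 6.13e-05), LAMP3 (-2.18, SE 0.47, adjusted p = 0.000115), APOL1 (-1.53, SE 0.35, adjusted p = 0.000350), the DNA sensor gene IFI16 (-1.42, SE 0.35, adjusted p = 0.000734) and GBP4 (-1.88, SE 0.47, adjusted p = 0.000880), all of which fell. In translation efficiency, IFI16 changed by -1.48 (SE 0.34, adjusted p = 0.00821), DDX60L by -1.28 (SE 0.37, adjusted p = 0.0206) and LGALS3BP by -1.05 (SE 0.36, adjusted p = 0.0441). LAMP3 (-1.09, adjusted p = 0.114), APOL1 (-0.95, adjusted p = 0.0629) and GBP4 (-1.17, adjusted p = 0.138) did not pass in translation efficiency. In total mRNA the changes were -1.10 for LAMP3, -0.82 for LGALS3BP, -0.81 for GBP4, -0.58 for APOL1, -0.48 for DDX60L and 0.04 for IFI16. Between the cultures of a line, no gene of either list passed the 2-fold limit in every fraction.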

How the data were processed

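RNA sequencing (single-read) was done on 14 libraries of MDA-MB-231 cells. The authors deposited whole-number read counts per gene symbol, without normalization. The submitters' processing notes name hg19, STAR 2.6.0a and limma, the deposited file is labelled as made with featureCounts, and the annotation and the strand setting are not given in the sources used here. The paper describes 2 independently performed studies.

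The statistical work used R 4.3.3 and edgeR 4.0.16. After filterByExpr and TMM scaling, each fraction had its own robust quasi-likelihood fit of 4 libraries. For translation efficiency, 8 libraries entered 1 model with a term for each culture, for the fraction and for the fraction by shRNA. The threshold was an adjusted p (Benjamini-Hochberg, over all genes tested) of 0.05. Cultures of a line were compared as log2 ratios of TMM-scaled CPM with a prior count of 2. Of the 58434 symbols, 4 repeated date-like symbols were left out, and 37621 matched GENCODE release 29, which gave positions and lengths (GRCh38). The scripts were tested on simulated data.

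The members and gene lists were chosen with earlier results of these data known. Values in every library are given for members past the threshold in any test (at most 12 per test, by lowest p), the 6 highest in total mRNA and the 6 with the largest difference between cultures in 1 direction. Of each list of other genes, up to 6 are named by lowest p. Some genes outside the 44 are not reported here. Alternatives were DESeq2 1.42.0, limma 3.58.1 on quantile-normalized log2 of CPM plus 1, library size without TMM, no filter on low counts or a minimum of 10 everywhere, a replicate block, a joint fit of all 14 libraries, no culture term, other control pools, offsets for coding length, and each replicate left out. Depth was 25899838 to 30795910 counts per library.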

Additional observations from a re-analysis of the deposited data

Results flagged for a closer look

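For 3 members the change after DAP5 silencing ran in opposite directions in heavy and light polysomes, with both shDAP5 cultures on one side of both shNSi cultures in heavy and on the other side in light polysomes. For IFI6 the log2 change was 0.99 in heavy and -0.27 in light polysomes, a difference of 1.26. For SAMD9 it was -1.28 in heavy and 0.69 in light polysomes, a difference of -1.97. For SAMD9L it was -1.16 in heavy and 0.76 in light polysomes, a difference of -1.92. Of all 14032 genes tested in both pools 10.3% met the same condition, against 7.32% of the 41 members, so the count says nothing particular of the set. The difference between the fractions was not tested, and none of the 3 light changes passed the adjusted threshold. With groups of 2 cultures, no single library could be checked as an outlier.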

How the results depend on the processing

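Depth limits IRF9, CMPK2, RSAD2 and IFI27, and 2 cultures per line limit every comparison. Where a replicate is left out, 1 arm holds a single library, which is assumed to vary like the other groups. Causes of the shifts below were not tested, except that the offsets remove the relation to coding length by construction.

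With the shNSi moderate pool as control, 0 members were called higher and 0 lower in heavy polysomes (median 0.57) and in heavy translation efficiency (median 0.43). The log2 changes in heavy polysomes then turned to -0.27 for IFI6, 0.92 for IFIH1, -0.01 for ISG15, 0.60 for OAS3, 0.52 for STAT2, 0.82 for DDX58, 0.51 for PARP14, 0.58 for DTX3L, 0.66 for SAMD9, 1.2 for SAMD9L, 1.00 for HERC5, 0.62 for HERC6, 0.35 for GBP1, 0.43 for TRIM21 and 0.27 for EIF2AK2. Those in heavy translation efficiency turned to 0.61 for IFIH1, -0.09 for IFITM1, -0.09 for IFITM2, -0.31 for ISG15, 0.98 for OAS3, 0.89 for STAT2, 0.50 for DDX58, 0.42 for PARP14, 0.69 for DTX3L, 0.48 for SAMD9, 0.83 for SAMD9L, 1.05 for HERC5, 0.68 for HERC6, -0.02 for UBE2L6, -0.12 for BST2, 0.76 for GBP1, 0.76 for GBP2 and -0.44 for EIF4G2. The same pool as control gave 1 higher and 2 lower in light polysomes (12.6% and 13% of all genes), and 4 and 5 (13.8% and 13.7%) with a median of -0.33 in light translation efficiency. With the moderate pool summed into the heavy control, 1 member was higher and 0 lower in heavy polysomes, and 0 and 0 in translation efficiency, with a median of -0.04 and EIF4G2 at -0.06.

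With library sizes in place of TMM, heavy polysomes gave 5 lower and translation efficiency 0 and 0 with a median of -0.32. DESeq2 gave 3 higher in heavy translation efficiency (median -0.72) and 1 higher in light polysomes (0.187% of all genes), and limma 1 higher and 3 lower in heavy translation efficiency. Without a filter, total mRNA gave 1 higher (0.569% of all genes) and light polysomes 1 higher and 1 lower (0.21% and 0.689%). Without a culture term, heavy translation efficiency gave 0 and 0, as over all genes (0% and 0%). Offsets for coding length gave 1 higher and 5 lower in heavy polysomes (median -0.16) and 0 and 1 in translation efficiency (median -0.44). At 1.5-fold, 6 members were higher in shDAP5 culture 1 (1.52% of all genes) and 2 in shNSi culture 2 (3.17%).

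Replicate numbers were taken as labels without pairing. Same-numbered deviations correlated at -0.20 to 0.05 over the 5 comparisons, which cannot show whether the cultures were paired. With the replicate block, 2 members were higher in total mRNA (0.734% of all genes), 1 in light polysomes (0.303%), and 1 higher and 7 lower in heavy translation efficiency (1.1% and 3.38%), namely IFI27, and PARP14, HERC5, IFIH1, SAMD9L, SAMD9, OAS3 and DDX58. With offsets for coding length and the replicate block, heavy polysomes gave 3 and 8 (11.8% and 12.5% of all genes) and translation efficiency 0 and 2 (1.9% and 2.06%). Crossed pairing of the block, chosen after seeing the data, gave 1 higher in light polysomes (0.245% of all genes), 8 higher and 12 lower in heavy polysomes (11.9% and 15.3%) and 8 and 15 in heavy translation efficiency (11.4% and 15.4%).

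Without shDAP5 replicate 2 no member was called in heavy polysomes, and without shNSi replicate 2 none in heavy translation efficiency. Almost no gene of the whole table was called in either fit, so this is the background and no result about the members. The shares of all genes called in the heavy measures, with each replicate left out, are given above. Over the 4 replicates left out in turn there were 0 to 4 members higher in total mRNA, 0 to 9 higher and 0 to 14 lower in heavy polysomes (median -0.63 to -0.01), 0 to 9 and 0 to 6 in light polysomes (median -0.26 to 0.25), 0 to 9 and 0 to 15 in heavy translation efficiency (median -0.72 to -0.44), and 0 to 3 and 0 to 4 in light translation efficiency (median -0.12 to 0.09).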
